A study of Mus musculus with 6 samples.

Results

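Ero1l and 9 other enzymes of oxidative protein folding in the endoplasmic reticulum (ER) were followed in hypoxia-treated and normoxic GC-2spd cells. The 10 genes, of 43412 genes with values, were taken by name: the ER oxidases Ero1l and Ero1lb, the disulfide isomerases P4hb, Pdia3, Pdia4, Pdia6 and Txndc5, and the ER peroxidases Prdx4, Gpx7 and Gpx8. The group was chosen by the fold change of Ero1l between hypoxia and normoxia, already seen in these libraries, and filled with its partners in the pathway. The values of the 10 genes are therefore described and are not used as a test. GC-2spd is an immortalized line derived from mouse spermatocytes, labelled as testis with a C57BL/6J strain background. The hypoxia-treated group was held at 1% O2 and the normoxic group at 21% O2, both with 5% CO2 in DMEM with 10% fetal bovine serum. Each group gave 3 libraries of poly(A) RNA, and the labels do not give the length of the exposure. It is not stated in the sources used here if the replicate libraries are of independent cultures, and p-values measure only the spread between these libraries.

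Disulfide bonds of secreted and membrane proteins are made in the ER. A protein disulfide isomerase (PDI) takes electrons from the cysteines of a client protein, and an ERO1 oxidase then takes them from the PDI and hands them to molecular oxygen, which yields hydrogen peroxide. ER peroxidases use that peroxide to oxidize further PDI molecules. ERO1 alpha, the product of Ero1l (now named Ero1a), is known in several mammalian cell types as a gene raised by hypoxia-inducible factor (HIF), whereas ERO1 beta, the product of Ero1lb (now Ero1b), is known from pancreas and other professional secretory tissues.

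The sequence before the start site of 4 of the genes is shown because it holds the short motifs that can be searched for beside the expression values. The windows are the 250 bases before the RefSeq start (GRCm38.p6, the assembly of mm10), 5′ to 3′ on the strand of the gene. Capitals mark each match to ACGTG or GCGTG (the core of the element bound by HIF, read as CACGT or CACGC on the other strand), to TGACGTGG (an ATF6-type element) or to the ER stress element (CCAAT and, after any 9 bases, CCACG), on either strand. For Pdia6 the last 44 of the 250 bases lie inside the gene as the files place it and are not shown.
Ero1l (chr14:45318573-45318822, minus strand): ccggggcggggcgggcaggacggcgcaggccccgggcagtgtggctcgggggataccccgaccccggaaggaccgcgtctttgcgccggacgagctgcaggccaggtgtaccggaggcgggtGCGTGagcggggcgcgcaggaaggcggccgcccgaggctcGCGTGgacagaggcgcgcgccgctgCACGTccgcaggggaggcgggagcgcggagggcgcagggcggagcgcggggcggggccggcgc
P4hb (chr11:120573254-120573503, minus strand): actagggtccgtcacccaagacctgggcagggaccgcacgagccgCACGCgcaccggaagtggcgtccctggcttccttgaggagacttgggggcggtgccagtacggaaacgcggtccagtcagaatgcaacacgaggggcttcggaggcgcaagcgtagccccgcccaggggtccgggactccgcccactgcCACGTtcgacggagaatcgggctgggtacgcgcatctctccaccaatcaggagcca
Ero1lb (chr13:12565633-12565882, plus strand): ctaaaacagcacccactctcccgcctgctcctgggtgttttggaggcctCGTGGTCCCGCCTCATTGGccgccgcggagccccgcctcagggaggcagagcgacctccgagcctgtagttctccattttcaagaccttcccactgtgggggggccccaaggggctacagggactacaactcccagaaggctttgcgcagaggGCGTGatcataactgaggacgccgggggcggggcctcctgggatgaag
Pdia6 (chr12:17266339-17266544, plus strand): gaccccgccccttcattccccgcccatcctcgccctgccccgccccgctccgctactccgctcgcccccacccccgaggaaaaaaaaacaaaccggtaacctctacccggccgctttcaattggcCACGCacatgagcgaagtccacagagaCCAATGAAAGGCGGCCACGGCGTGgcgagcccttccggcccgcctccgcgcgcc
All 10 genes were found in the RefSeq table, with 12 windows, since Txndc5 has 3 start sites.

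The Ero1l window held 3 matches to the HIF-type core, 128, 88 and 63 bases before the start. The P4hb window held 2, at 205 and 56 bases. Of 32851 windows of the same length over the mouse genes, 38.6% held at least 1 such match, 16.7% at least 2 and 6.58% at least 3. The Ero1l window was also rich in G and C (80.8%, against a median of 52.4% over all windows), and 0.992% of windows reached that content. The part of base content in the number of matches was not tested, and a match is a description of the sequence, not a shown binding site. The longest GENCODE release 21 model of Ero1l starts 199 bases further upstream, and the 3 matches lie within that model.

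Matches to the core were not particular to the 2 genes that were higher in hypoxia. They occurred for 8 of the 10 genes, and the windows of Pdia4 and Gpx7 held none. Pdia6 held 3, of which the match at 13 bases lies in the part not shown. The matches of Prdx4 at 52 and 51 bases are a single CACGTG read on both strands, and its window and those of Gpx7 and of Txndc5 starts 2 and 3 lie almost wholly inside the gene as the files place it. The ER stress element was found in 37 of all windows (0.113%), 2 of them those of Pdia6, 98 bases before the start and next to a GCGTG, and Ero1lb, at 201 bases on the opposite strand. TGACGTGG, found in 0.563% of windows, occurred once, 138 bases before Txndc5 start 3, where it holds one of the ACGTG matches.

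**Figure D1:**
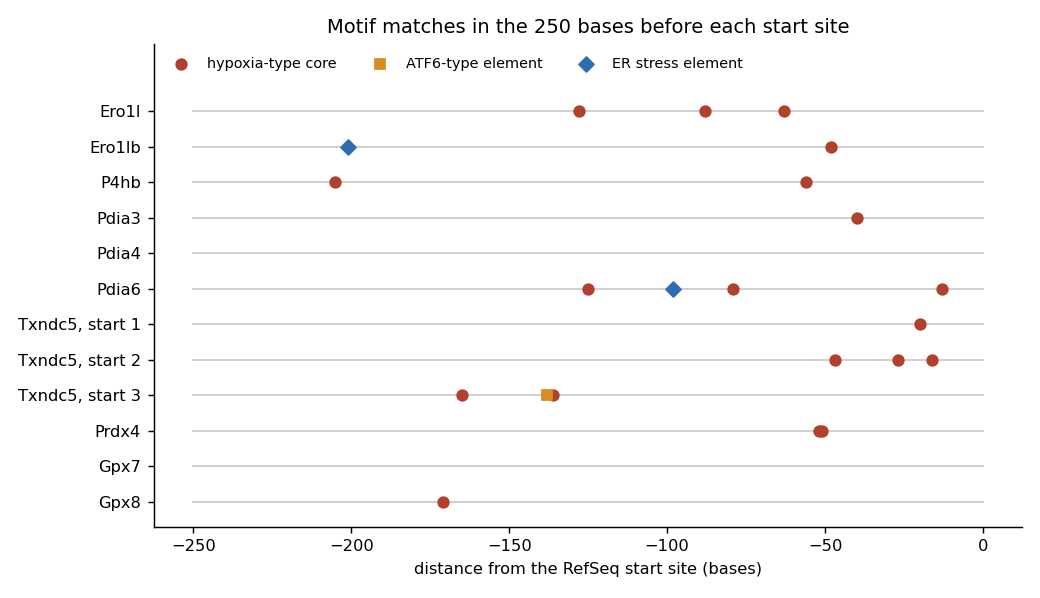
Distance in bases from the RefSeq start site (horizontal axis) of each motif match in the 250 bases before it, with 1 row for each of the 12 windows of the 10 genes. Circles mark ACGTG or GCGTG, the square TGACGTGG and diamonds the ER stress element; Ero1l has circles at 128, 88 and 63 bases, and Pdia4 and Gpx7 have no mark.

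The libraries of the 2 groups were of like depth, with 5.80 to 6.72 gigabases of aligned sequence in hypoxia-treated cells and 5.75 to 6.61 in normoxic cells. A smaller share of TPM (a gene's part of all transcripts, scaled for transcript length) came from mitochondrial genes in hypoxia-treated cells, 5.49% to 5.59% against 9.25% to 9.29%. Of 20 reference targets of HIF, 19 were significantly higher in hypoxia, with a median log2 fold change of 1.80, among them Bnip3, a mitophagy receptor (1.74), Egln1, an oxygen sensor (2.08), the glycolytic enzyme Pgk1 (1.49) and the transcription factor Bhlhe40 (1.88; limma adjusted p = 1.12e-06 for each of the 4). Pfkfb3 did not pass (-0.15, adjusted p = 0.27), and 0 were lower, also at an unadjusted p under 0.05. The label of the line was checked against markers. None of 14 meiotic germ cell markers and none of 8 spermatid markers reached 1 TPM in any library, and Sycp1, Stra8 and Piwil1 were listed at 0 in all 6. Of 10 fibroblast and myoid markers 6 averaged at least 1 TPM and summed to 2723 to 2978 TPM in hypoxia against 2290 to 2359 in normoxia, nearly all from Col1a1 and Col1a2, with Thy1 listed at 0. Sertoli markers (3 of 8 at 1 TPM or more) summed to 45.2 to 56.4 against 42.8 to 54.4 TPM, Leydig markers (2 of 6) to 7.17 to 10.6 against 3.61 to 6.88 TPM, macrophage markers (2 of 5, with Ptprc, Adgre1 and Lyz2 at 0) to 10.5 to 11.5 against 7.20 to 8.11 TPM and markers of professional secretory cells (1 of 9, Sdc1, with Ins1, Ins2, Cpa1 and Prss1 at 0) to 17.4 to 20.8 against 30.5 to 35.1 TPM. The part of these differences in the results below was not tested. In a bulk sample, fewer cells of a kind and less RNA per cell cannot be told apart.

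Ero1l, the oxidase, was much higher in hypoxia-treated cells. Its level was 610.4, 607 and 593 TPM in the hypoxia-treated libraries, against 43.9, 46.9 and 45.6 TPM in the normoxic ones. The groups lay far apart and each varied little, with means of 603 ± 9.11 and 45.5 ± 1.48 TPM (SD, n = 3 each), a ratio of 13.3. The log2 fold change, on the scale of log2(TPM + 1), was 3.70 with a standard error of 0.04, which ranked it first of 13749 genes with a mean of at least 1 TPM (1 gene at or above it, 0.00727%). This rank depends on the scale: with a pseudocount of 0.1, 8 genes lay above Ero1l (3.73), among them Gm24561 (5.84), Aire (5.36) and Epm2a (4.50), and 1 gene did so under quantile normalization (Epm2a, 3.74, against 3.71) and without normoxia replicate 1. As the gene was chosen for this change, it carries no test here.

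The increase was of nearly the same size in the other 2 values the files give for Ero1l (ENSMUSG00000021831, chr14:45283092-45318572, minus strand, mm10). FPKM, scaled to the fragments of each library, was 244, 237 and 228 in hypoxia, against 17.6, 19.4 and 18.4 in normoxia. The mean read depth over the gene, not scaled for library size, was 1415, 1591 and 1352 in hypoxia, against 117, 111 and 114 in normoxia, a ratio of means of 12.8. In TPM Ero1l ranked 208th, 210th and 216th of all genes in the 3 hypoxic libraries, against ranks 4145, 3780 and 3975 in the normoxic ones. No other annotated gene overlaps Ero1l, and none of its 50-base stretches occurs in a transcript of another gene. The locus that was assembled from the reads at Ero1l held 92.8%, 100% and 98.9% of the annotated value in the hypoxic libraries and 100% in each normoxic one.

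**Figure D2:**
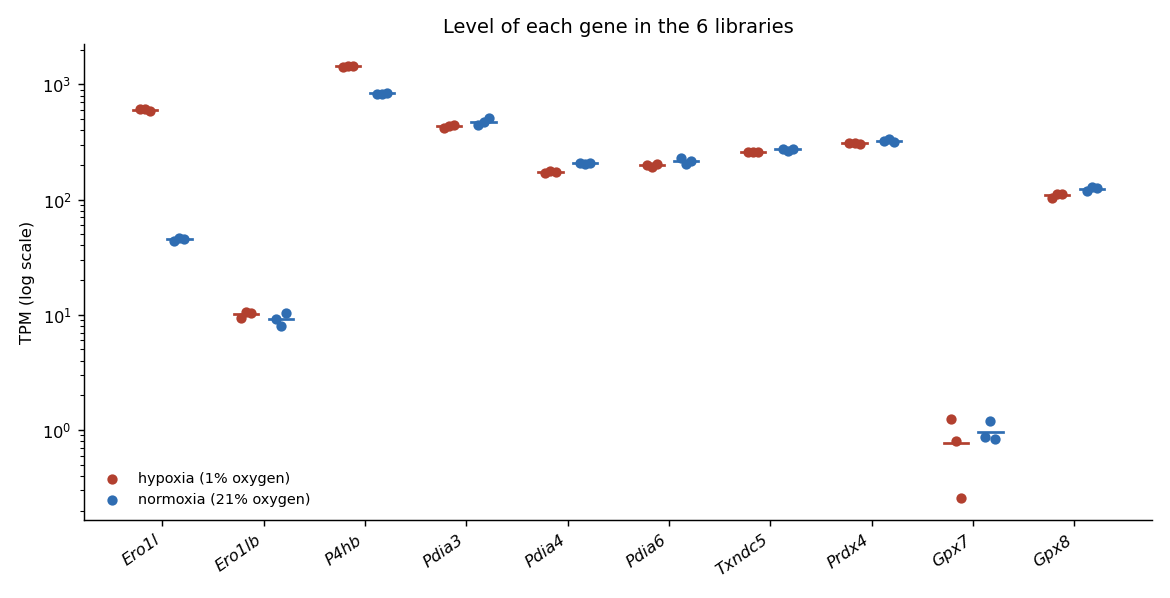
TPM on a log scale (vertical axis) of the 10 genes in the 3 hypoxia-treated libraries (red, left of each pair) and the 3 normoxic libraries (blue, right); points are libraries and bars are group means. Ero1l is set apart by group, at 593 to 610.4 TPM in hypoxia against 43.9 to 46.9 TPM in normoxia, while the 2 groups of most other genes lie at nearly the same height.

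Ero1lb, the second oxidase, did not share this change. It was at 9.46, 10.5 and 10.3 TPM in hypoxia, against 9.27, 8.07 and 10.3 TPM in normoxia. The groups overlapped, and the log2 fold change was 0.12 (SE 0.10). Ero1l transcripts therefore outnumbered those of Ero1lb by 59.97 ± 3.96 to 1 in hypoxia-treated cells, against 4.99 ± 0.721 to 1 in normoxic cells (SD, n = 3 each). For Ero1lb (ENSMUSG00000057069, chr13:12565883-12609526, plus strand), 9.62% of its 50-base stretches occur also in transcripts of 80 other genes, and a small nucleolar RNA gene, Gm25483, lies within it on the same strand, so its low value is less certain than that of Ero1l.

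P4hb, the PDI that gives the family its name and also the beta subunit of collagen prolyl 4-hydroxylase, was the other gene that was higher. It was at 1407, 1455 and 1440.0 TPM in hypoxia, against 833, 830.0 and 847 TPM in normoxia, with no overlap. The means were 1434 ± 24.7 and 836 ± 8.86 TPM (SD, n = 3 each), a ratio of 1.71, and the log2 fold change was 0.78 (SE 0.03). Among the genes tested, 643 (4.68%) had a log2 fold change at least as large, P4hb included. P4hb (ENSMUSG00000025130, chr11:120560298-120573253, minus strand) had the highest level of the 10 genes in every library, shared no 50-base stretch with another gene and overlapped none.

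The other disulfide isomerases changed little. Pdia3 (ERp57, which works on glycoproteins held by calnexin and calreticulin; ENSMUSG00000027248, chr2:121413775-121438687, plus strand) was at 417, 439 and 442 TPM in hypoxia, against 441, 473 and 509 TPM in normoxia, and its groups overlapped. Pdia6 (P5; ENSMUSG00000020571, chr12:17266545-17284770, plus strand) was at 200.3, 190.3 and 204 TPM in hypoxia, against 231, 203 and 216 TPM in normoxia, again with overlap. The log2 fold change was -0.13 (SE 0.06) for each of the pair, against a median of -0.13 over all genes tested. Leaving out 1 library moved these values from -0.18 (called, without normoxia replicate 1) to -0.08 (without normoxia replicate 3) for Pdia3, and from -0.17 (called, without normoxia replicate 2) to -0.08 (without normoxia replicate 1) for Pdia6. Both overlap a neighbour on the opposite strand, Catsper2 by 18 bases for Pdia3 and Atp6v1c2 by 50 bases for Pdia6.

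Pdia4 (ERp72; ENSMUSG00000025823, chr6:47796142-47813512, minus strand) was the isomerase that was lower. It was at 169, 177 and 175 TPM in hypoxia, against 209, 202 and 207 TPM in normoxia. The 3 hypoxic libraries all lay below the normoxic ones, and the log2 fold change was -0.25 (SE 0.04). Txndc5 (ERp46; ENSMUSG00000038991, chr13:38500273-38528824, minus strand) was at 260.2, 259 and 259.6 TPM in hypoxia, against 277, 266 and 276 TPM in normoxia. Its hypoxic libraries also lay below the normoxic ones, by a log2 fold change of only -0.07 (SE 0.03) that did not pass the test. For Txndc5, 11.9% of the 50-base stretches are shared with the antisense gene Gm31834 or with Bmp6, and whether the counting used strand is not given in the sources used here. The microRNA gene Mir704 lies within Pdia4 on the same strand.

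The peroxidases did not follow Ero1l. Prdx4 (the ER peroxiredoxin; ENSMUSG00000025289, chrX:155323918-155340754, minus strand) was at 308, 309.8 and 302 TPM in hypoxia, against 320.4, 334 and 318 TPM in normoxia. Its groups did not overlap, and the log2 fold change was -0.08 (SE 0.04), which did not pass. Gpx8 (ENSMUSG00000021760, chr13:113042763-113046388, minus strand), a membrane-bound ER glutathione peroxidase homologue, was at 104, 113 and 111 TPM in hypoxia, against 119, 127 and 126 TPM in normoxia. All hypoxic libraries lay below the normoxic ones, and the log2 fold change was -0.19 (SE 0.05). Gpx8 lies within Cdc20b on the opposite strand, which was at most 0.0092 TPM. Gpx7 (ENSMUSG00000028597, chr4:108400390-108406961, minus strand), the close relative of Gpx8, was at 1.26, 0.803 and 0.255 TPM in hypoxia, against 0.876, 1.20 and 0.830 TPM in normoxia, with overlap. Gpx8 made up 99.3% ± 0.481 of the summed TPM of the pair in hypoxia and 99.2% ± 0.146 in normoxia.

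Of the 10 genes, 9 reached a mean of 1 TPM and entered the fit over all genes with limma; Gpx7 did not. Ero1l and P4hb were called higher (2 genes, where 17.9% of all genes tested were higher), Pdia4 and Gpx8 were called lower (2 genes, where 36.1% were lower), and 5 were not called; 54.0% of the 13749 genes were called in either direction at an adjusted p under 0.05. The groups did not overlap for 6 of the 9, where 62.4% of all genes tested did not; 2 lay above (21.4% of all genes) and 4 below (41.0%). The Gpx8 call was lost without normoxia replicate 2 or 3 (-0.17 each). Since the genes were chosen with these changes known, nothing is read from these counts. The median log2 fold change of the 9 genes was -0.08, against -0.13 over all genes tested. Relative to that median, the log2 difference was 3.83 for Ero1l, 0.91 for P4hb, -0.11 for Pdia4 and -0.05 for Gpx8.

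The TPM values sum over all transcripts, so the rest of the transcriptome bears on small changes. Median-ratio scaling of the libraries moved the median of all genes by 0.13, to 0.00. Under it Ero1l was at 3.85 and P4hb at 0.92, Pdia4 stayed lower at -0.10, Gpx8 was at -0.04 and no longer called, and Pdia3 (0.02), Pdia6 (0.02), Txndc5 (0.07) and Prdx4 (0.07) turned to the other sign. Under quantile normalization Ero1lb, at 0.34, was called higher and Txndc5, at -0.10, lower.

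**Figure D3:**
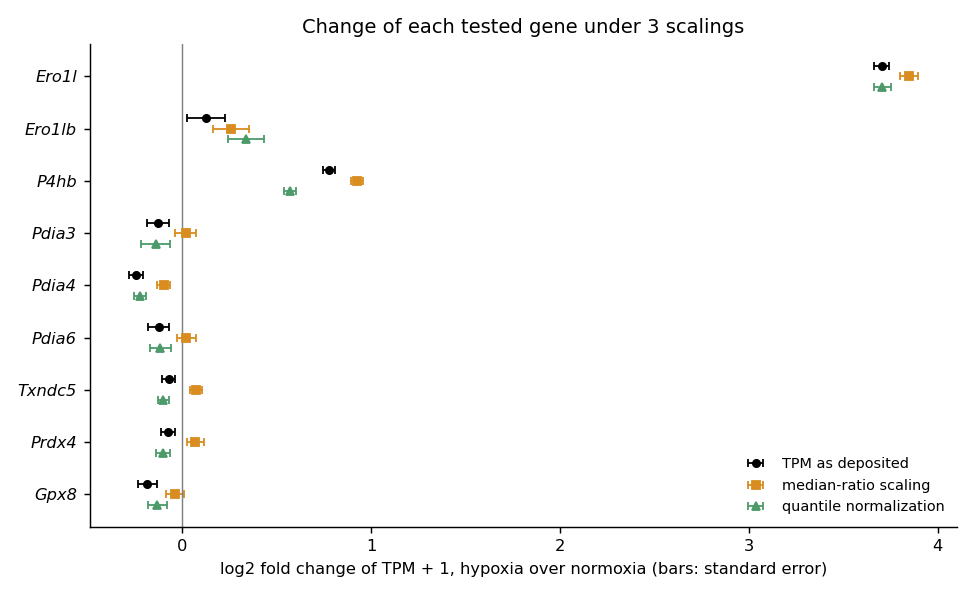
Log2 fold change of TPM + 1, hypoxia over normoxia (horizontal axis), of the 9 genes tested, with the standard error as bars, for TPM as deposited (black circles), median-ratio scaling (orange squares) and quantile normalization (green triangles). Ero1l lies at 3.70 to 3.85 and P4hb at 0.57 to 0.92, and Pdia3, Pdia6, Txndc5 and Prdx4 lie on both sides of 0.

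The order of the levels changed at one place only, that of Ero1l. In hypoxia-treated cells it ran P4hb, Ero1l, Pdia3, Prdx4, Txndc5, Pdia6, Pdia4, Gpx8, Ero1lb and Gpx7, the same in all 3 libraries, and no neighbours overlapped. In normoxic cells Ero1l stood eighth, between Gpx8 and Ero1lb, and the other 9 kept their order, also in all 3 libraries; of the neighbours there, Pdia6 (203 to 231 TPM) and Pdia4 (202 to 209 TPM) overlapped. Ero1l made up 17.5%, 17.0% and 16.8% of the summed TPM of the 10 genes in hypoxia, against 1.77%, 1.88% and 1.78% in normoxia.

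The ratio of isomerase to oxidase transcripts thus differed widely. The 5 disulfide isomerases summed to 2498 ± 39.2 TPM in hypoxia and 2006 ± 42.4 TPM in normoxia, and per transcript of Ero1l plus Ero1lb there were 4.07 ± 0.111 isomerase transcripts in hypoxia, against 36.7 ± 0.747 in normoxia (SD, n = 3 each). For P4hb alone, the ratio to Ero1l was 2.38 ± 0.0646 in hypoxia and 18.4 ± 0.640 in normoxia. Per Ero1l transcript there were 0.508 ± 0.0032 Prdx4 transcripts in hypoxia, against 7.13 ± 0.166 in normoxia. Prdx4 itself was at 307 ± 3.81 TPM in hypoxia and 324 ± 8.82 in normoxia, so this ratio mainly restates the change of Ero1l. Within the isomerases P4hb took a larger share, 57.4% ± 0.303 of their TPM in hypoxia against 41.7% ± 0.437 in normoxia. Such ratios do not depend on a scaling factor per library, and as sums of the chosen genes they carry no test.

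**Figure D4:**
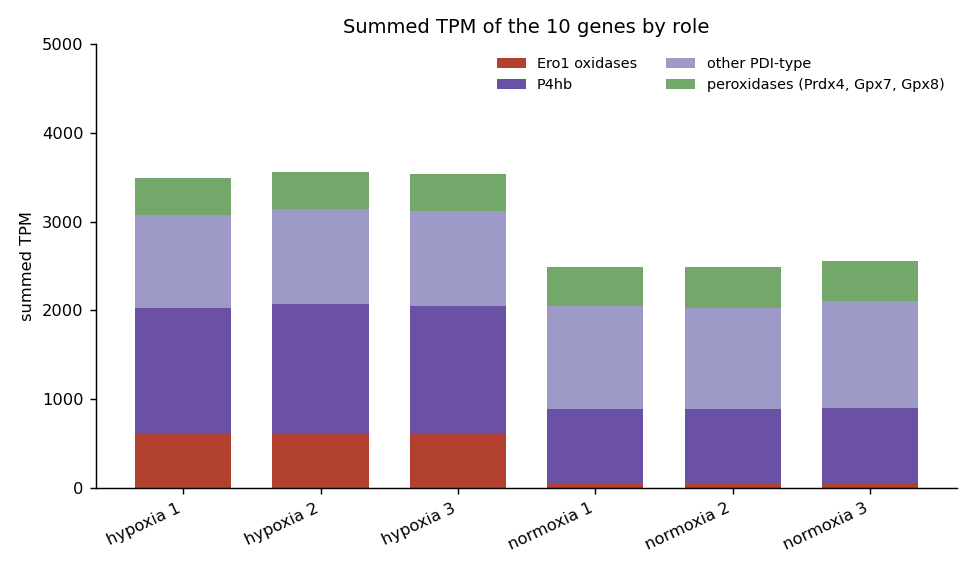
Summed TPM (vertical axis, from 0) of the 10 genes in each of the 3 hypoxia-treated and 3 normoxic libraries, stacked as Ero1 oxidases (red), P4hb (dark purple), the other 4 PDI-type genes (light purple) and the peroxidases (green). The stacks reach 3486 to 3560 TPM in hypoxia and 2484 to 2555 TPM in normoxia, and the difference lies in the oxidase and P4hb layers.

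The partners of P4hb moved in both directions. The alpha subunits of collagen prolyl 4-hydroxylase, which need P4hb to form the active enzyme, were significantly higher for P4ha2 (470 ± 30.2 TPM in hypoxia against 121 ± 9.48 in normoxia, log2 fold change 1.95, limma adjusted p = 5.22e-06) and P4ha1 (428 ± 17.1 against 183 ± 6.90, 1.22, adjusted p = 5.72e-06), and significantly lower for P4ha3 (13.7 ± 0.581 against 37.2 ± 0.958, -1.38, adjusted p = 9.35e-06; SD, n = 3 each). Mttp, the lipid transfer protein that also binds P4hb, did not pass (-0.25, adjusted p = 0.14). The 3 alpha subunits summed to 912 ± 44.0 TPM in hypoxia and 341 ± 6.56 TPM in normoxia, so that P4hb transcripts per alpha subunit transcript came to 1.57 ± 0.0497 in hypoxia, against 2.46 ± 0.0594 in normoxia.

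Of 17 other members of the PDI family, 12 were tested, 2 were higher and 5 lower, with a median of -0.04. These counts lay near the shares of all genes tested, 17.9% higher and 36.1% lower, and nothing is read from them. Tmx4, a transmembrane thioredoxin-like protein of the ER, was at 37.9 ± 2.14 TPM in hypoxia and 17.8 ± 0.262 TPM in normoxia (log2 fold change 1.05, limma adjusted p = 2.81e-05). Tmx2 was the other that was higher (0.18, adjusted p = 0.012), and it shares its strand with the overlapping gene Gm28635, so its value is uncertain. Dnajc10 (ERdj5, a disulfide reductase of ER-associated degradation) fell to 102 ± 2.71 TPM in hypoxia, against 134 ± 5.69 in normoxia (-0.39, adjusted p = 0.000592). Txndc15 (-0.42), Txndc11 (-0.46) and Tmx3 (-0.32) were also lower, Txndc11 with the opposite-strand gene Snn overlapping it. Erp44, which retains ERO1 in the ER, was at 36.7 ± 3.17 TPM in hypoxia and 35.1 ± 0.841 in normoxia, with overlap (0.06, adjusted p = 0.51). Pdia2, Erp27, Pdilt, Agr2 and Agr3 were not tested, with at most 0.209 TPM; Pdilt, the testis-specific member, was listed at 0 in all 6 libraries. The 17 genes had 4 higher and 5 lower calls under median-ratio scaling.

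Of 12 other thiol enzymes and related proteins of the ER, 11 were tested, 1 was higher and 4 lower, with a median of -0.06. Median-ratio scaling turned this balance, with 2 higher, 1 lower and a median of 0.09. Among all genes tested, 17.9% were higher and 36.1% lower in TPM as deposited, and nothing is read from the counts of this list. Selenos (-0.51, limma adjusted p = 0.00407), Selenot (-0.27, adjusted p = 0.00207) and the vitamin K epoxide reductase Vkorc1 (-0.37, adjusted p = 0.00677) were lower, Vkorc1 with Gm21974 on the same strand over it. Under median-ratio scaling the calls of Selenot (-0.13) and Vkorc1 (-0.23) were lost. Vkorc1l1 (-0.74, adjusted p = 0.037) and Selenok (0.16, adjusted p = 0.0465) lay at the threshold, and without hypoxia replicate 1 or 2 or normoxia replicate 1 or 2 both calls were lost, which left 3. The sulfhydryl oxidase Qsox1, a path to disulfides that does not need ERO1, was at 69.9 ± 4.12 TPM in hypoxia and 65.5 ± 1.09 in normoxia. All its hypoxic libraries lay above the normoxic ones. In TPM as deposited its log2 fold change did not pass (0.09, limma adjusted p = 0.20). It was 0.24 under median-ratio scaling, and whether it passed there is not given here.

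The relatives of the ER peroxidases outside the ER were mostly lower. Of 11 peroxiredoxin and glutathione peroxidase genes, 7 were tested, 1 was higher and 5 lower, with a median of -0.42. Among all genes tested, 17.9% were higher and 36.1% lower, and the difference of the list from these shares was not tested. Mitochondrial Prdx3 fell to 56.5 ± 1.39 TPM in hypoxia, against 138 ± 4.44 in normoxia (log2 fold change -1.28, limma adjusted p = 4.26e-06), and Gpx1 to 286 ± 13.4 against 493 ± 18.1 TPM (-0.79, adjusted p = 3.58e-05). Prdx1 (-0.55) and Prdx2 (-0.42) were lower too, and Prdx5 was higher (0.35, adjusted p = 0.000735). Prdx2 and Prdx5 overlap well expressed genes on the opposite strand (Rnaseh2a and Junb, and Trmt112) and are uncertain. Prdx4 (-0.08) and Gpx8 (-0.19) lay closer to 0 than each of these 7 relatives, of which Gpx4, at -0.32, was the nearest; the difference was not tested.

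The glutathione and thioredoxin systems supply reducing power in the cytosol and mitochondria. Of 17 of their genes tested, 13 were lower and none higher, with a median of -0.62. Among all genes tested, 36.1% were lower and 17.9% higher, with a median of -0.13. The list was chosen with earlier results of these data known, and its difference from all genes was not tested. At an unadjusted p under 0.05 with limma, 0 of the 17 were higher and 13 lower. Under median-ratio scaling 1 of them was higher and 12 lower. Thioredoxin reductase Txnrd1 fell to 111 ± 2.17 TPM in hypoxia, against 247 ± 8.46 in normoxia (-1.15, limma adjusted p = 4.68e-06). The gene Eid3, which has no value in these libraries, overlaps Txnrd1 on the same strand, so the Txnrd1 value is less certain. The NADPH-producing enzymes Pgd (-0.99, adjusted p = 4.35e-05) and G6pdx (-0.83, adjusted p = 4.99e-05) were lower, G6pdx with an opposite-strand neighbour, Ikbkg, that makes it uncertain. The cystine carrier subunit Slc7a11 was at 2.34 ± 0.0841 TPM in hypoxia and 8.67 ± 1.30 TPM in normoxia (-1.52, adjusted p = 0.000107).

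Of 26 ER chaperones and folding factors tested, 7 were higher, 10 lower and 9 not called. Among all genes tested, 17.9% were higher and 36.1% lower, and nothing is read from the counts of this list. The median of the 26 was -0.13, equal to that of all genes, and median-ratio scaling gave 9 higher and 7 lower. The HSP90 of the ER, Hsp90b1, was at 987 ± 27.3 TPM in hypoxia and 578 ± 14.7 TPM in normoxia (log2 fold change 0.77, limma adjusted p = 1.4e-05), and Gm15344 and the microRNA gene Gm25745 lie within it on its strand, so that its reads may be divided. The ER HSP70 Hspa5 (BiP) was at 514 ± 26.8 and 396 ± 15.3 TPM (0.37, adjusted p = 0.000964), and its exchange factor Sil1 (0.43) and Canx (0.21) were higher too. Cnpy2 (51.3 ± 3.67 TPM in hypoxia and 104 ± 3.07 in normoxia), Fkbp11 (-0.91), Dnajb11 (-0.49) and Fkbp14 (-0.53, with the opposite-strand gene Plekha8 overlapping it) were lower.

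Of 21 sensors and targets of the unfolded protein response tested, 4 were higher, 8 lower and 9 not called, with a median of -0.02. These counts lay near the shares of all genes tested, 17.9% higher and 36.1% lower, and nothing is read from them. Median-ratio scaling gave 7 higher and 5 lower of the 21. Xbp1, the transcription factor of the IRE1 branch, was at 97.2 ± 8.76 TPM in hypoxia and 66.6 ± 9.84 TPM in normoxia (log2 fold change 0.55, limma adjusted p = 0.00768), and Edem2 (0.38) and Sel1l (0.21) of ER-associated degradation were higher, Sel1l not without hypoxia replicate 2 or normoxia replicate 3 (0.20 each). Eif2ak3 (PERK) was at the threshold (0.18, adjusted p = 0.0497), and leaving out any 1 of the libraries other than hypoxia replicate 3 ended its call. The transcription factor Atf4 was lower, at 312 ± 15.3 TPM in hypoxia and 464 ± 20.7 TPM in normoxia (-0.57, adjusted p = 0.000156), as were Chac1, which degrades glutathione, at 17.1 ± 1.28 and 77.1 ± 2.76 TPM (-2.11, adjusted p = 3.03e-06), Trib3 (-0.86) and Ppp1r15b (-0.81). Ddit3 (CHOP) is known elsewhere as an activator of Ero1l under ER stress. It was at 90.1 ± 9.36 TPM in hypoxia and 75.5 ± 9.91 TPM in normoxia. In TPM as deposited it did not pass (0.25, limma adjusted p = 0.0955). The log2 fold change was 0.40 under median-ratio scaling and 0.33 under quantile normalization. Under these 2 scalings 7 and 8 genes of the list were called higher. Whether Ddit3 passed there is not given here, so the result above holds for TPM as deposited only. Any part of Ddit3 in the level of Ero1l was not tested.

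**Figure D5:**
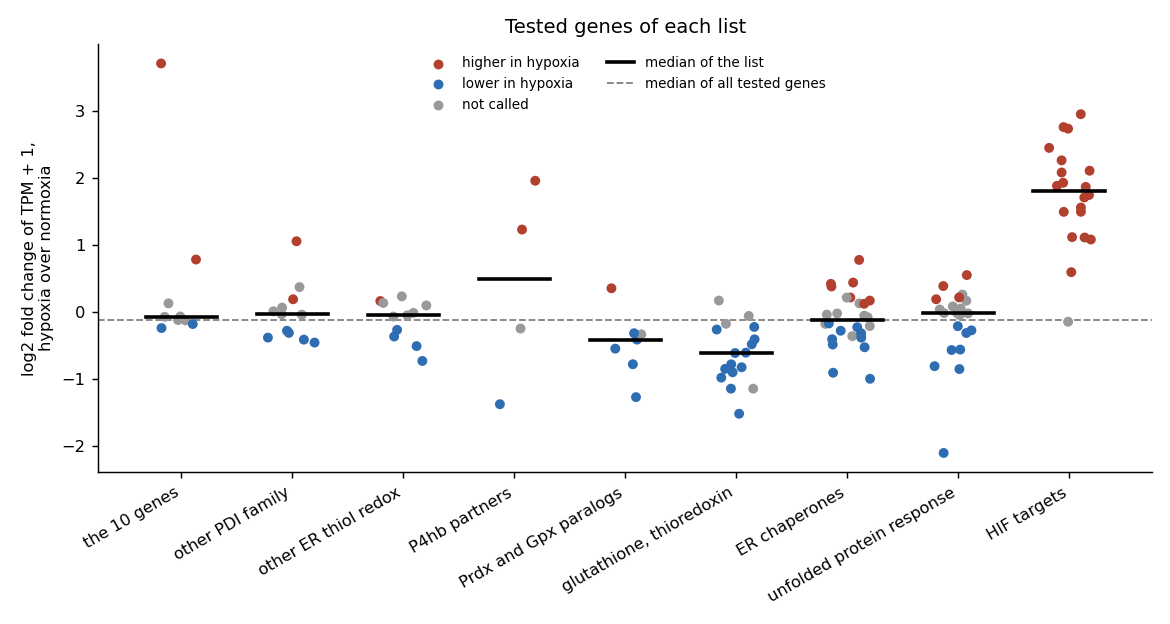
Log2 fold change of TPM + 1, hypoxia over normoxia (vertical axis), of each tested gene in 9 lists; red points were called higher, blue points lower and grey points not called, black bars are list medians and the dashed line is the median of all genes tested (-0.13). The highest point among the 10 genes is Ero1l at 3.70, above every HIF target (highest Ndrg1, 2.94), and the list of the glutathione and thioredoxin systems has its median at -0.62.

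The genes with a profile most like that of Ero1l over the 6 libraries were found by the Euclidean distance between log2(TPM + 1) values, each gene centred on its own mean. They were Aire (distance 0.233), Epm2a (0.505), 2610528A11Rik (0.512), Ndrg1 (0.946) and Gm24561 (1.17). Aire was at 13.0, 13.6 and 12.9 TPM in hypoxia, against 0.246, 0.241 and 0.188 TPM in normoxia. Ndrg1, one of the HIF targets, was the only one of the 5 with a level like that of Ero1l, 601, 569.6 and 548 TPM in hypoxia against 77.2, 76.4 and 67.3 TPM in normoxia. Aire and Gm24561 lie under 1 TPM in normoxia, and Epm2a averages 0.93 TPM there. At such levels the pseudocount of 1 sets much of the distance. Over 2 groups the distance also depends largely on the fold change, by which Ero1l was chosen, so it carries no test. The log2 fold changes of the 5 genes ran from 2.79 to 3.59, against 3.70 for Ero1l.

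The protein-coding genes next to Ero1l on chromosome 14 did not share its change. Psmc6, a proteasome subunit gene 11.0 kb away, was at 155, 160.0 and 152 TPM in hypoxia, against 149, 155 and 144 TPM in normoxia, with overlap (log2 fold change 0.06, limma adjusted p = 0.29). Styx, 32.3 kb away, was at -0.08 (adjusted p = 0.57), and Gnpnat1, 57.6 kb away, was lower at -0.64 (adjusted p = 0.000584). On the other side the nearest protein-coding gene tested was a PDI family member, Txndc16, 62.8 kb away, at 13.2, 14.4 and 13.1 TPM in hypoxia, against 7.93, 13.3 and 10.2 TPM in normoxia, with overlap (0.37, adjusted p = 0.10).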

How the data were processed

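RNA of 6 GC-2spd libraries was analysed. The authors enriched poly(A) RNA; Cutadapt, HISAT2, StringTie and mm10 are named in the submitters' processing notes, with versions not given in the sources used here. The deposited TPM and FPKM are those StringTie writes per gene, and the deposited coverage signal is mean read depth, unscaled. Each table lists annotated genes and, apart from them, assembled loci that sum to 1000000, so TPM was handled as a signal and only annotated genes were used. The design had assumed an ordinary TPM table. Of 43432 gene IDs, 42462 took a symbol from GENCODE mouse release 21; symbols left 43412 genes. No counts are in the tables, so no counting interval is given, and precision rests on 3 libraries in each group.

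The log2(TPM + 1) values of genes averaging 1 TPM or more were compared with limma 3.58.1 (R 4.3.3; variance trend, 2-sided, Benjamini-Hochberg over 13749 genes, threshold 0.05) and tested on simulated data first. This replaced the count test of the study. A pseudocount of 1 understates changes of low genes. Other steps used Python 3.11.15. Alternatives were a pseudocount of 0.1, no filter or a mean of 5 TPM, FPKM, median-ratio, quantile and nuclear-gene scaling, no variance trend, a replicate block, leaving out each library and, added after seeing the data, the assembled locus. Replicate numbers were not taken as pairs of libraries.

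The genes, lists and tests were chosen with earlier results of these data known. The text names all 10 genes, up to 4 called genes per direction of each list by adjusted p, family relatives and the 5 genes most like Ero1l. Pfkfb3, Mttp, Qsox1, Ddit3 and the neighbours of Ero1l were named after their values were seen.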

Additional observations from a re-analysis of the deposited data

How the results depend on the processing

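Over all alternatives, 123 of 143 values of the 9 tested genes kept their direction and their side of the threshold. Of the rest, 12 passed it in addition, 4 no longer passed it and 4 changed sign. A further 48 genes were followed: the called genes named from each list and the 5 genes most like Ero1l. Of their 719 values, 687 were kept, 32 no longer passed and 0 changed sign. All 48 passed in TPM as deposited and most were picked by adjusted p, so none could pass in addition. The share kept says nothing of uncalled genes such as Ddit3 and Qsox1. Ero1l, P4hb and Pdia4 kept their calls under each alternative run, but the first rank of Ero1l was lost with a pseudocount of 0.1 (rank 9), with quantile normalization (rank 2) and without normoxia replicate 1 (rank 2). The 4 changes of sign came with median-ratio scaling, for Pdia3 (0.0162), Pdia6 (0.0200), Txndc5 (0.0732) and Prdx4 (0.0678). With FPKM or with nuclear genes only, 8 of the 9 genes were called, 2 higher and 6 lower. The Gpx8 call was lost under median-ratio (-0.04) and quantile (-0.13) scaling and without normoxia replicate 2 (-0.17) or 3 (-0.17). Median-ratio and quantile scaling moved the share of higher genes among all calls to 49.9% and 49.6%, against 33.1% in TPM as deposited. The cause was not tested.

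Of the other ER thiol genes, 5 were called, and 3 with no filter, with median-ratio scaling (2 higher, 1 lower), with no variance trend or with the replicate block. Leaving out each library in turn gave 3 to 5 calls among the 9 genes, 3 to 5 among the ER thiol genes, 8 to 12 in the unfolded protein response and 6502 to 6912 of all genes. The deviations of hypoxic and normoxic libraries with the same replicate number correlated by 0.03, 0.03 and 0.01. Those with different numbers correlated by -0.05 to 0.03. The numbers were not taken as pairs, and whether they mark pairs is not given in the sources used here. With the replicate block 6955 genes were called, against 7430 without it. In the assembled-locus alternative Ero1l was at 3.66 and P4hb at 0.78, and Gpx7 and Gpx8 gave no value, since each lacked such a locus in 1 hypoxic library. Depth is known only as aligned bases, which limits what can be said of Gpx7 at about 1 TPM.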
